A study of Mus musculus with 12 samples.

Results

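Caspases are proteases that carry out apoptosis, the ordered self-destruction of a cell. Initiator caspases are switched on in large complexes, executioner caspases then cut the proteins of the cell, and inhibitor proteins hold both kinds in check. Neurons depend on this balance because they are not readily replaced, and brake proteins such as Xiap are known to matter for their survival. The genes described here are 8 of the 24343 genes with a value in every library, taken by name from the deposited tables: the initiators Casp2, Casp8 and Casp9, the executioner Casp6, and the inhibitors Cflar, Birc2, Birc3 and Xiap. All 8 were found in the tables and all 8 passed the filter on low values.

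The 12 RNA-seq libraries came from HT22, a mouse neuronal line of hippocampal origin that divides without limit. The cells received a control siRNA (siControl) or an siRNA against Ncoa4 (siNCOA4), the receptor that delivers ferritin to autophagy and so releases stored iron. Each was kept without or with deferoxamine (DFO), an iron chelator, at 100 µM for 24 h, which gave the 4 groups siControl, siNCOA4, siControl+DFO and siNCOA4+DFO. Each group held 3 biological replicates, and all cells, controls included, had been transfected. The design asks how loss of Ncoa4, lack of iron and both together alter transcript levels. It covers 1 cell line and 1 time point, and a knockdown leaves some transcript of its target. Only 1 siRNA against Ncoa4 was used, so effects of its sequence on other genes cannot be told apart from loss of Ncoa4. Below, loss of Ncoa4 means treatment with this siRNA.

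Ncoa4 stood at 6.46, 6.19 and 6.02 FPKM (sequenced fragments per kilobase of a transcript, scaled for the depth of the library) in siControl cells and at 0.770, 0.952 and 0.891 in siNCOA4 cells. With DFO it was at 8.70, 8.31 and 7.52 in siControl and at 0.850, 1.29 and 1.57 in siNCOA4 cells, so every siNCOA4 library lay below every siControl library. Relative depth, recovered from the size of 1 fragment in genes with low values, spanned 1.52-fold between the shallowest and the deepest library. The shallowest, siNCOA4+DFO replicate 3, was also the least like its group, with a mean correlation of 0.930 with its group mates over the tested genes against 0.938 to 0.953 in the other libraries, and values without it are given where they bear on a change described below. Of 12 neuronal marker genes 11 were below 0.7 FPKM in all libraries, Prox1 was listed at 0 in all, and Tubb3 alone exceeded 0.5 in all, so these markers did not bear out the neuronal label. Summed levels of 4 endothelial and fibroblast markers, of which Col1a1 and Pdgfra were expressed, ranged from 357 to 461 FPKM in siControl, 212 to 267 in siNCOA4, 77.6 to 111 in siControl+DFO and 112 to 142 in siNCOA4+DFO. These marker levels moved with both treatments, and their part in the results was not tested. In bulk RNA, fewer cells of a kind and less RNA per cell cannot be told apart.

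Casp8, activated under death receptors, and Cflar, which resembles it but lacks its protease activity and restrains it, are neighbours on chromosome 1 of GRCm38, at chr1:58795374-58847503 and chr1:58711508-58758884, both on the plus strand and 36490 bases apart. Birc2 (cIAP1) and Birc3 (cIAP2), ubiquitin ligases of the tumour necrosis factor receptor complex, lie 11635 bases apart on the minus strand at chr9:7818227-7837064 and chr9:7848699-7873186. Casp9, the initiator of the mitochondrial pathway, is at chr4:141793612-141815976, Casp2, the initiator of the PIDDosome, at chr6:42264985-42282508, Casp6 at chr3:129901425-129914103 and Xiap, which binds and blocks caspases directly, at chrX:42059679-42109656, all on the plus strand. All 8 are annotated as protein-coding genes, and values are over each gene as a whole. In Casp9, 1.81% of exon bases overlap the opposite-strand genes Cela2a and Ctrc. At most 5.37% of the 75-base windows of a member, the value of Cflar, occur in another annotated gene, and Birc2 and Birc3 are close paralogs of which 0.875% of Birc2 windows are shared most with Birc3.

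The 4 members that changed with DFO in control cells are Casp9, Cflar, Birc2 and Birc3, and their promoter windows (250 bases before to 50 after the annotated start, RefSeq, GRCm38.p6) are shown to set their sequence beside that behaviour. Capitals mark the hypoxia response cores ACGTG and GCGTG, the GC box GGGCGG and the cAMP response element TGACGTCA on either strand.
Casp9: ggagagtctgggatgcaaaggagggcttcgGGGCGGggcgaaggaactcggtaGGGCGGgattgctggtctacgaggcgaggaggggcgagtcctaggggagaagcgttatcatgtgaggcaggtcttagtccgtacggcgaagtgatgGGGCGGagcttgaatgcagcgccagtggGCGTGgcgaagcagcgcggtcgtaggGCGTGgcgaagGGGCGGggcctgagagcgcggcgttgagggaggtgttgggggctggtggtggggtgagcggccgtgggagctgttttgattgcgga
Cflar: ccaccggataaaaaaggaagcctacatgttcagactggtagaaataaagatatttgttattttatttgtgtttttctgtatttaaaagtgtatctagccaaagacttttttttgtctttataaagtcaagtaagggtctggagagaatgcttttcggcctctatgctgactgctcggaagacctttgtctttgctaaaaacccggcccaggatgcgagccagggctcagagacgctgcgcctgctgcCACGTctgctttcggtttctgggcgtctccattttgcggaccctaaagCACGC
Birc2: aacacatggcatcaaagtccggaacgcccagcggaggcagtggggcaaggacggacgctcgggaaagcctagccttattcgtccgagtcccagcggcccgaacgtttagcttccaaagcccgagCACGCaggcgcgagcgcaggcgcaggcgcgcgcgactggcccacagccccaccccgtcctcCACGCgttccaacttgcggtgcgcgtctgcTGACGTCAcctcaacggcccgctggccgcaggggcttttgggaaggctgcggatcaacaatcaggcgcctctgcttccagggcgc
Birc3: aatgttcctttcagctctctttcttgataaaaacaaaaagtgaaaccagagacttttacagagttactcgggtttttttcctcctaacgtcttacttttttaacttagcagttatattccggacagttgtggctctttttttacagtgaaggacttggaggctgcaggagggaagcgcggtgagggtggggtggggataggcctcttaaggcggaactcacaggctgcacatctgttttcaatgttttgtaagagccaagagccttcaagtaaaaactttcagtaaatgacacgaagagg
The windows lie at chr4:141793362-141793661 (plus strand), chr1:58711241-58711540 (plus), chr9:7837008-7837307 (minus) and chr9:7873121-7873420 (minus), each printed 5′ to 3′ in the direction of its gene. The Cflar start is one that the GENCODE annotation does not hold.

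Casp9 and Birc2 have GC-rich windows, at 66.0% and 67.0% G and C, while those of Cflar and Birc3 are poorer at 45.0% and 43.0%, against a median of 52.7% over 32851 promoter windows. The Casp9 window holds 4 GC boxes and 2 GCGTG cores. The Birc2 window holds 2 GCGTG cores and 1 cAMP response element. Cflar carries 1 core of each kind and 2 matches to the TATA box TATAAA, which is not capitalized. Birc3 carries none of the capitalized motifs. Members that did not pass with DFO in control cells hold such motifs too, in windows not shown. The Casp6 window has 1 ACGTG core and 3 GC boxes, and that of Casp2 1 GCGTG core and 2 GC boxes. A Xiap window has 1 ACGTG core and 2 GC boxes, while the Casp8 window has none of these motifs. Of all windows, 19.6% hold ACGTG, 32.4% GCGTG, 35.7% GGGCGG, 13.6% TATAAA and 1.79% TGACGTCA. No window of any member matched the NF-kB site, which 4.51% of all windows hold, or the AP-1 element TGANTCA, which 7.81% hold. The p53 half-site, in 8.36% of all windows, was found once, in a second Birc2 window that is not shown. These matches describe letters only.

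Casp8 had the highest mean FPKM of the 8 genes in all 4 groups. In siControl cells the order of mean levels was Casp8, Birc2, Casp2, Xiap, Casp6, Cflar, Casp9 and Birc3, from 17.6 ± 1.44 to 3.17 ± 0.502 FPKM (SD, n = 3). Libraries of Birc2 and Casp2, of Xiap and Casp6, and of Casp6 and Cflar overlapped, so these neighbours did not differ beyond their spread. In siControl+DFO cells Cflar stood in position 3 behind Casp8 and Birc2, with overlapping libraries among them, and Casp9 was last.

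**Figure D1:**
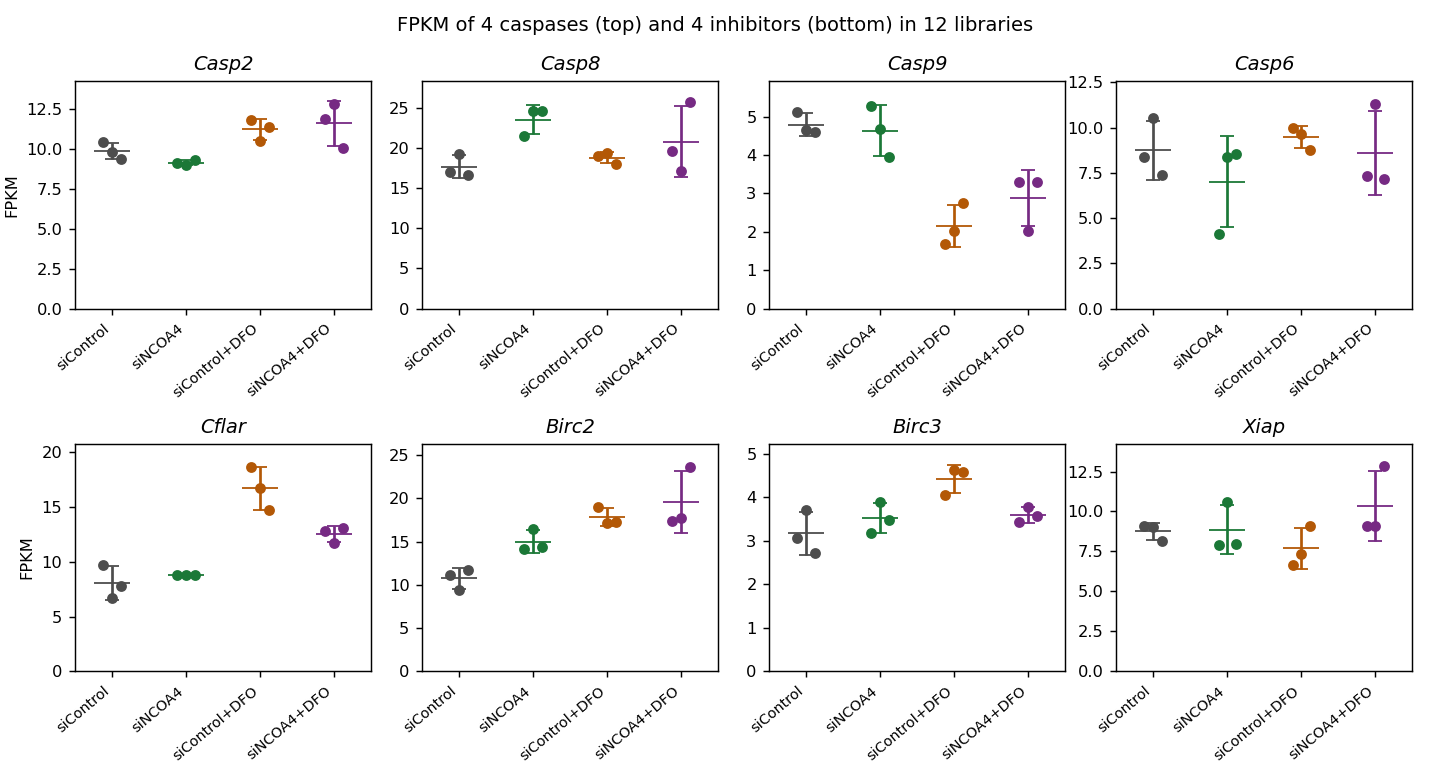
FPKM of each of the 8 genes (vertical axis, from 0) in the 4 groups (horizontal axis). Points are single libraries, long bars the mean and whiskers the SD of 3 libraries. Casp9 sat at 4.60 to 5.14 FPKM in siControl and at 1.69 to 2.75 in siControl+DFO, while Cflar went from 6.71 to 9.71 up to 14.8 to 18.7.

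Casp9 transcripts fell with DFO. They were at 5.14, 4.65 and 4.60 FPKM in siControl and at 1.69, 2.01 and 2.75 in siControl+DFO, and every treated library lay below every control library. Casp9 was 2.21-fold lower, a log2 change of -1.15 (SE 0.23, 95% interval -1.64 to -0.65, adjusted p = 0.00109, limma, as for all adjusted p-values here). The same direction was seen in siNCOA4 cells, which share no library with the first comparison. There Casp9 went from 5.28, 4.69 and 3.95 FPKM to 3.29, 2.03 and 3.29 with DFO, again without overlap. Its log2 change was -0.70 (SE 0.23, adjusted p = 0.0264), and the call was lost without siNCOA4 replicate 1 (adjusted p = 0.0935), without siNCOA4 replicate 2 (0.0649) without siNCOA4+DFO replicate 2 (0.112) or with the compared groups fitted alone (0.0503). The difference between the DFO changes in the 2 backgrounds was 0.45 on the log2 scale (95% interval -0.25 to 1.15, adjusted p = 0.506).

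Cflar, the brake on Casp8, rose with DFO. Its FPKM was 9.71, 6.71 and 7.79 in siControl and 18.7, 16.7 and 14.8 in siControl+DFO. All treated libraries were above all control libraries, and the change was 2.07-fold (log2 1.05, SE 0.13, 95% interval 0.76 to 1.34, adjusted p = 3.4e-05). In siNCOA4 cells the 3 libraries were close together at 8.84, 8.81 and 8.84 FPKM without DFO, and with DFO they were at 12.8, 11.7 and 13.1. This rise was 1.41-fold (log2 0.50, SE 0.13, adjusted p = 0.00948). The DFO change differed between siNCOA4 and siControl cells by -0.55 on the log2 scale (SE 0.19, 95% interval -0.96 to -0.14), with an unadjusted p of 0.0124 and an adjusted p of 0.143, so this difference did not pass.

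Birc2, the more abundant of the paralogous ligases, rose with DFO as well. It was at 11.1, 9.40 and 11.7 FPKM in siControl and at 19.1, 17.2 and 17.3 in siControl+DFO. These groups did not overlap, and Birc2 was 1.66-fold higher (log2 0.73, SE 0.13, adjusted p = 5.08e-04). From siNCOA4 (14.1, 16.5 and 14.4 FPKM) to siNCOA4+DFO (17.4, 17.7 and 23.7) the log2 change was 0.37 (SE 0.13, adjusted p = 0.0372). Replicate 3 of siNCOA4+DFO held the highest value of the 12. Without it the change was 0.23 (adjusted p = 0.137), and the call was also lost without siNCOA4 replicate 1 (0.111) or replicate 3 (0.104), under quantile normalization (0.108) and, at 0.0517 to 0.0700, under 3 other settings.

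Birc3 was the least abundant inhibitor, and its values could be read back as whole fragments, from 25 to 47 per library within 0.02 of a whole number. Counting error alone was then 14.6% to 20% per library. The SD between replicates was smaller, at 9.9% of the mean in siNCOA4, 7.3% in siControl+DFO and 5.0% in siNCOA4+DFO, and 15.8% in siControl. The test rests on the spread between replicates, so it may understate the error of Birc3. Of the members only Birc3 could be read back as whole fragments. The counting error of Casp9, at 1.69 to 2.75 FPKM in siControl+DFO, is not known. The FPKM of Birc3 was 3.06, 3.71 and 2.72 in siControl and 4.05, 4.62 and 4.58 in siControl+DFO, where all treated libraries were higher. The rise was 1.39-fold (log2 0.48, SE 0.16, adjusted p = 0.0230), and it was lost without siControl replicate 1 (0.0535), siControl replicate 3 (0.0925), siControl+DFO replicate 2 (0.0690) or siControl+DFO replicate 3 (0.0656), and with the compared groups fitted alone (0.0528). In siNCOA4 cells Birc3 was at 3.19, 3.88 and 3.48 FPKM without and 3.42, 3.78 and 3.57 with DFO, which overlap (log2 change 0.03, 95% interval -0.31 to 0.38). The DFO changes differed by -0.44 between the backgrounds (95% interval -0.93 to 0.04, adjusted p = 0.325).

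Casp2 differed little between groups. It was at 10.4, 9.85 and 9.41 FPKM in siControl, 9.16, 9.03 and 9.31 in siNCOA4, 11.8, 10.5 and 11.4 in siControl+DFO and 11.9, 12.9 and 10.1 in siNCOA4+DFO. With DFO it was higher without overlap in both backgrounds, but only the change in siNCOA4 cells passed (log2 0.33, SE 0.11, adjusted p = 0.0240, against 0.18 and 0.165 in control cells). The 2 changes were not shown to differ (difference 0.15, 95% interval -0.18 to 0.48, adjusted p = 0.655). The call in siNCOA4 cells was lost without any one of the 3 siNCOA4 libraries (adjusted p of 0.0525 to 0.0616), without siNCOA4+DFO replicate 1 (0.0694), without replicate 2 (0.103) and with the compared groups fitted alone (0.0619).

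Neither Casp8, Casp6 nor Xiap passed the test with DFO in either background. Casp8 was at 17.0, 19.3 and 16.6 FPKM in siControl and 19.0, 19.3 and 18.0 in siControl+DFO. In siNCOA4+DFO its values of 19.5, 17.1 and 25.7 spread widely, with replicate 3 the highest, and lay around those of siNCOA4 (21.4, 24.5 and 24.6). The DFO change in siNCOA4 cells was -0.20 (95% interval -0.48 to 0.09, adjusted p = 0.255) and became -0.36 (adjusted p = 0.0152) without that library.

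Xiap, the direct caspase inhibitor, was at 9.11, 9.05 and 8.12 FPKM in siControl, 7.93, 10.6 and 7.99 in siNCOA4, 6.63, 7.37 and 9.10 in siControl+DFO and 9.08, 9.10 and 12.9 in siNCOA4+DFO. Its groups overlapped in every comparison, and siNCOA4+DFO replicate 3 was again the highest library. Casp6, known to cut lamin A, had the widest intervals of the 8, with FPKM of 8.35, 10.6 and 7.36 in siControl, 4.14, 8.35 and 8.57 in siNCOA4, 9.99, 9.67 and 8.78 in siControl+DFO and 7.31, 11.3 and 7.18 in siNCOA4+DFO. The interval for DFO in control cells ran from -0.45 to 0.70, so a fall or a rise within that range was not excluded.

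With DFO in siControl cells 4 of the 8 genes thus passed an adjusted p of 0.05, 3 higher and 1 lower, while 53.4% of 11924 tested genes did so in this comparison (27.7% higher and 25.7% lower). Among the inhibitors 3 of 4 were higher, and among the caspases 1 of 4 was lower. Casp9 and Cflar also exceeded a 2-fold change, which 18.8% of tested genes did. Groups did not overlap for 5 members, beside 60.7% of tested genes. The median log2 change of the 8 was 0.16, and that of all tested genes was -0.01. In siNCOA4 cells DFO moved 4 of 8 past the test, again 3 higher and 1 lower, against 42.7% of all genes (23.1% higher and 19.6% lower), with none beyond 2-fold (11.4% of all genes) and 4 without overlap (52.6%).

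**Figure D2:**
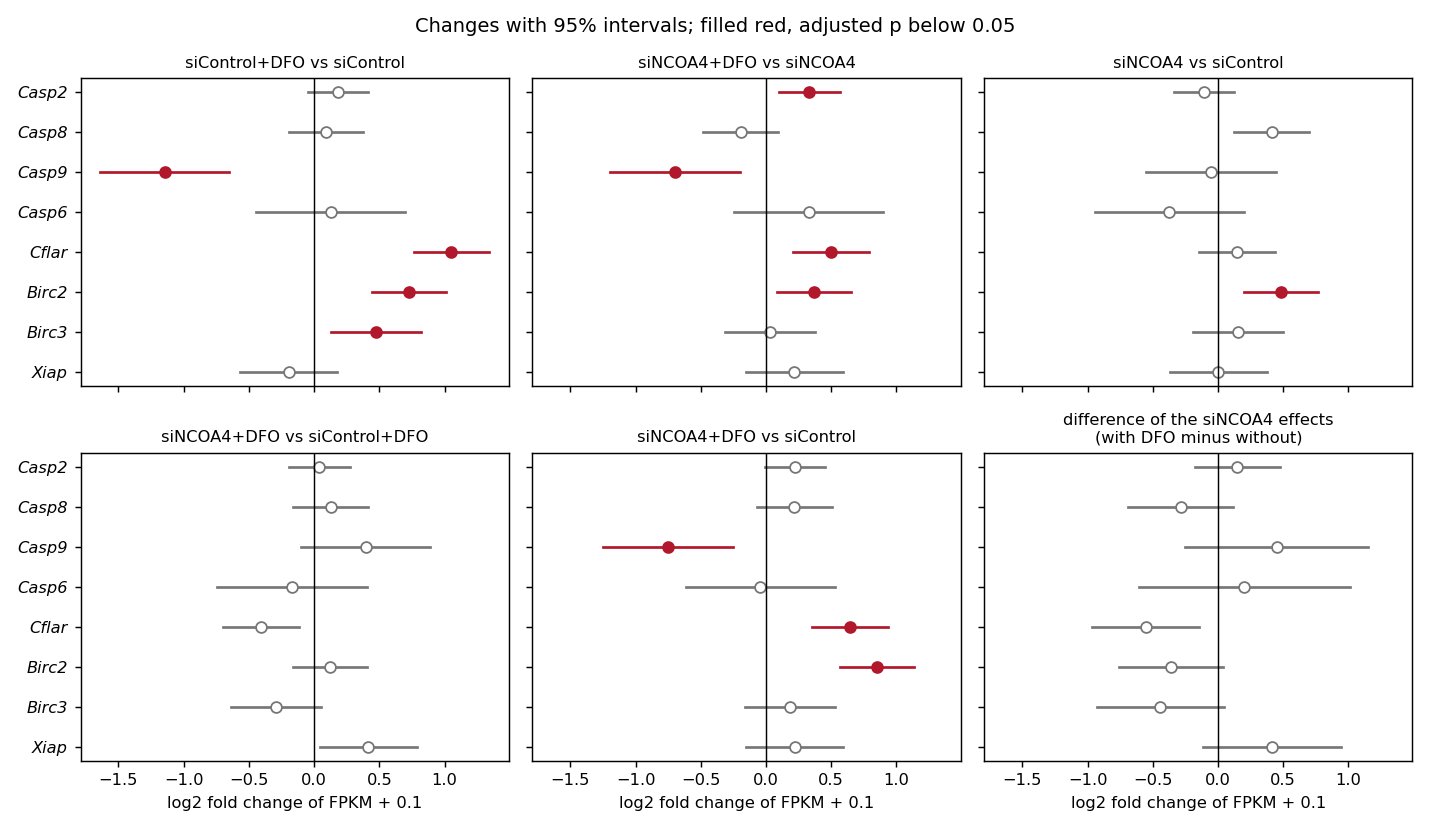
Log2 fold change of FPKM + 0.1 (horizontal axis) of each gene (vertical axis) in 5 comparisons and for the difference of the siNCOA4 effects, with 95% intervals. Filled red points passed an adjusted p of 0.05. With DFO in siControl cells Casp9 lay at -1.15 and Cflar at 1.05, and no point passed between siNCOA4+DFO and siControl+DFO.

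With loss of Ncoa4 and no DFO, Birc2 alone of the 8 genes passed, at 14.1, 16.5 and 14.4 FPKM in siNCOA4 against 11.1, 9.40 and 11.7 in siControl, where the groups did not overlap. Its log2 change was 0.48 (SE 0.13, 95% interval 0.20 to 0.77, adjusted p = 0.0334), or 1.40-fold. The call depended on single libraries and was lost without siControl replicate 1 (0.0650), siControl replicate 2 (0.116), siNCOA4 replicate 1 (0.0577), replicate 2 (0.127) or replicate 3 (0.0704), and under 3 other settings (0.0513 to 0.0532). Of all tested genes 11.7% passed in this comparison, 4.52% in the direction of Birc2, beside 1 of the 8 members.

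Casp8 was also higher in each siNCOA4 library than in any siControl library, with a log2 change of 0.41 (95% interval 0.13 to 0.70, adjusted p = 0.0635). It passed when the fit left out siNCOA4+DFO replicate 2 (0.0398) or replicate 3 (0.0133), libraries that enter only through the shared spread, or fitted the compared groups alone (0.0446). Casp2 was lower without overlap (log2 -0.11, adjusted p = 0.567). In all, 3 members did not overlap between these groups, and 32.6% of tested genes did not. Casp9, Birc3, Xiap, Cflar and Casp6 overlapped, with log2 changes of -0.37 to 0.15 and adjusted p of at least 0.404.

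Under DFO, loss of Ncoa4 passed the test in 0 of 8 members (limma), with an unadjusted p below 0.05 in 2, Cflar and Xiap. In this comparison 16.5% of all tested genes passed. Cflar was at 12.8, 11.7 and 13.1 FPKM in siNCOA4+DFO against 18.7, 16.7 and 14.8 in siControl+DFO, lower in every library. Its log2 change was -0.41 (SE 0.13, 95% interval -0.70 to -0.12, adjusted p = 0.0554), and it crossed the threshold without siControl replicate 1 (0.0255), siControl replicate 2 (0.0398) or siControl+DFO replicate 3 (0.0483). Birc3 was lower without overlap too (log2 -0.29, adjusted p = 0.230), which made 2 members without overlap against 34.8% of all genes. Xiap had a log2 change of 0.41 (95% interval 0.04 to 0.79, adjusted p = 0.118), which was 0.25 (adjusted p = 0.365) without siNCOA4+DFO replicate 3.

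Cells given both the Ncoa4 siRNA and DFO were compared with siControl cells last. Birc2 was 1.80-fold higher (log2 0.85, SE 0.13, adjusted p = 1.77e-04), Cflar 1.56-fold higher (log2 0.64, SE 0.13, adjusted p = 0.00162) and Casp9 1.68-fold lower (log2 -0.75, SE 0.23, adjusted p = 0.0159). For each of these 3 the groups did not overlap, as for 54.8% of all genes, and 48.8% of all genes passed the test (25.4% higher and 23.4% lower). The Casp9 call was lost without siNCOA4+DFO replicate 2 (log2 -0.53, adjusted p = 0.0698), and Casp8 passed there (log2 0.35, adjusted p = 0.0430). Without siNCOA4+DFO replicate 3 the count was 4, since Casp2 then passed (log2 0.32, adjusted p = 0.0203). This comparison shares its siControl libraries with those of each single treatment. Set side by side, the log2 changes from siControl with siNCOA4, DFO and both were 0.14, 1.05 and 0.64 for Cflar, 0.48, 0.73 and 0.85 for Birc2, 0.15, 0.48 and 0.19 for Birc3 and -0.05, -1.15 and -0.75 for Casp9.

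The siNCOA4 effects with and without DFO differed past the test in 0 of 8 members by limma and in 2.1% of all genes. At an unadjusted p below 0.05 there was 1, Cflar.

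Within a library, the ratio of Cflar to Casp8 sets the brake beside its protease on a scale per length. It was 0.571, 0.348 and 0.468 in siControl, 0.412, 0.359 and 0.360 in siNCOA4, 0.984, 0.864 and 0.821 in siControl+DFO and 0.655, 0.686 and 0.508 in siNCOA4+DFO. Every siControl+DFO ratio exceeded every ratio of the other groups, and the siNCOA4+DFO ratios fell between, overlapping with siControl. The mean ratio of Birc2 to Birc3 was 3.49 ± 0.896 in siControl, 4.27 ± 0.147 in siNCOA4, 4.06 ± 0.558 in siControl+DFO and 5.46 ± 1.03 in siNCOA4+DFO (SD, n = 3). Every siNCOA4+DFO ratio exceeded the siNCOA4 ratios, but its lowest lay beneath the highest siControl+DFO ratio. No test was run on these ratios.

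**Figure D3:**
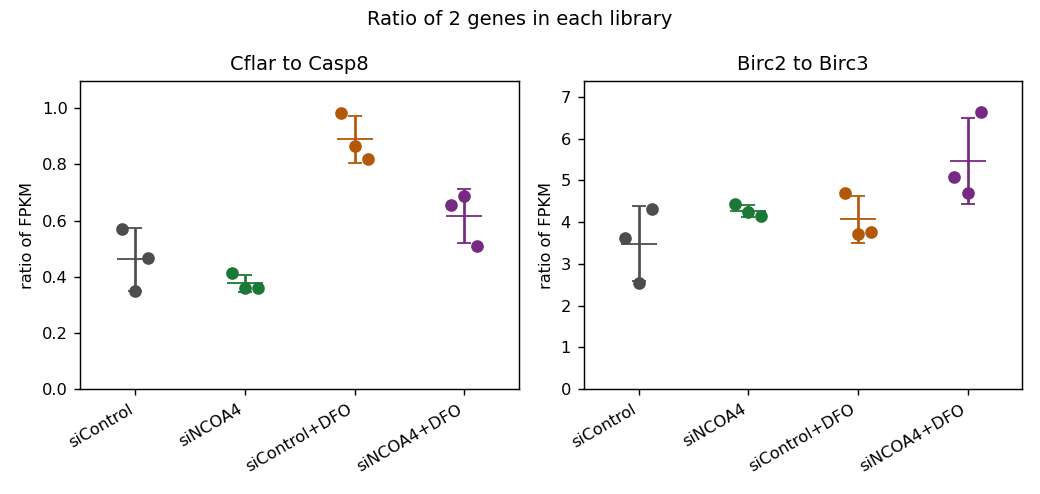
Ratio of FPKM (vertical axes, from 0) of Cflar to Casp8 and of Birc2 to Birc3 in the 4 groups (horizontal axes). Points are libraries, long bars means and whiskers the SD of 3 libraries. The Cflar to Casp8 ratio averaged 0.462 in siControl and 0.890 in siControl+DFO.

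The genes that the caspases work with were followed in lists of 46 genes, of which 41 passed the filter. Birc7, an inhibitor family member, was listed at 0 in all libraries, and Casp1, Casp14, Naip1 and Sept4 stayed too low to test. With DFO in siControl cells 18 of the 41 rose and 7 fell, or 61.0% in all, beside 53.4% of all tested genes. In siNCOA4 cells the counts with DFO were 13 and 4, or 41.5% beside 42.7%. Both counts of risers include Traf1, at most 0.256 FPKM in siControl and 0.356 in siNCOA4. It reached 0.5 FPKM only in DFO libraries, so it passed the filter only through the groups where it was high. Loss of Ncoa4 gave 5 higher and 1 lower without DFO (14.6% beside 11.7%) and 3 higher and 6 lower with it (22.0% beside 16.5%). In siNCOA4+DFO cells 18 were higher and 9 lower than in siControl (65.9% beside 48.8%). Where a gene below was named for its role after its values were seen, it is Apaf1, Casp4 or Casp12.

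Fas and Pidd1, which act upstream of initiator caspases, rose with DFO. Fas, the death receptor upstream of Casp8, went from 1.22, 2.13 and 1.88 FPKM in siControl to 40.8, 47.8 and 37.2 in siControl+DFO (log2 4.54, SE 0.26, adjusted p = 4.83e-08). Pidd1, which assembles the Casp2 platform, went from 2.02, 2.55 and 1.93 to 28.0, 29.7 and 27.6 (log2 3.66, SE 0.20, adjusted p = 3.06e-08). In siNCOA4 cells the log2 changes with DFO were 2.97 for Fas (adjusted p = 3.4e-06) and 2.60 for Pidd1 (adjusted p = 1.15e-06). Replicate 3 of siNCOA4+DFO was the lowest of its group for both, at 12.5 and 18.2 FPKM, against 19.1 and 25.9 for Fas and 28.9 and 32.2 for Pidd1 in the others. Fas was lower in siNCOA4+DFO than in siControl+DFO (log2 -1.18, adjusted p = 0.01). The difference of the siNCOA4 effects (with DFO minus without) was -1.57 for Fas (adjusted p = 0.0509) and -1.07 for Pidd1 (adjusted p = 0.0709). Neither passed as reported. Of the 7 genes of the death receptor complex 4 rose and 1, Tradd, fell with DFO in each background, where 53.4% of all tested genes passed in siControl and 42.7% in siNCOA4 cells. Of the 2 PIDDosome genes Pidd1 rose, while Cradd did not pass.

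Apaf1, the scaffold on which Casp9 is activated, moved opposite to Casp9. It was at 10.2, 7.97 and 8.87 FPKM in siControl, 12.7, 13.7 and 11.5 in siNCOA4, 43.2, 44.3 and 47.2 in siControl+DFO and 48.3, 46.0 and 39.6 in siNCOA4+DFO. All DFO libraries exceeded all others, with a log2 change of 2.31 in siControl (adjusted p = 1.16e-08) and 1.81 in siNCOA4 cells (adjusted p = 1.92e-07). Apaf1 was also higher in siNCOA4 than in siControl (log2 0.49, adjusted p = 0.0136), a call lost without siControl replicate 2 (0.0536) or siNCOA4 replicate 2 (0.0612) and with these groups fitted alone (0.0588).

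Among the other caspases, those of the inflammatory group moved in opposite directions with DFO in siControl cells. Casp4 went from 1.26, 2.00 and 2.59 FPKM to 10.5, 6.88 and 7.07, and Casp12 from 7.31, 6.46 and 8.06 to 2.13, 2.24 and 2.82, both without overlap. Casp4 rose (log2 2.04, adjusted p = 3.39e-05), and Casp12 fell (log2 -1.57, adjusted p = 5.47e-04).

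Among the targets and other inhibitors, Dffb, the nuclease set free when caspases cut its partner, rose with DFO from 2.75, 1.64 and 0.881 to 11.3, 14.3 and 10.4 FPKM in siControl cells (log2 2.82, adjusted p = 3.12e-05). In siNCOA4 cells it rose by 3.09 (adjusted p = 2.56e-05). Lmna, the lamin that Casp6 cuts, fell with loss of Ncoa4, from 368, 351 and 357 FPKM in siControl to 148, 136 and 141 in siNCOA4 (log2 -1.34, adjusted p = 9.12e-07) and by the same amount under DFO (log2 -1.34, adjusted p = 1.88e-06). Naip5, a family member that senses bacterial flagellin, was higher in siNCOA4 (log2 0.90, adjusted p = 0.0147) and in siNCOA4+DFO than in siControl+DFO (log2 1.25, adjusted p = 0.00215). The first of these was lost without siControl replicate 3 (0.0508), siNCOA4 replicate 1 (0.0506) or siNCOA4 replicate 2 (0.0689). Naip7 was higher in siNCOA4+DFO than in siControl+DFO (log2 2.71, adjusted p = 0.0130), a call lost with these groups fitted alone (0.0719). The log2 change was 1.75 without siControl+DFO replicate 1 and 1.53 with a pseudocount of 1. Naip genes are close copies, so how reads were split between them is uncertain. Zbp1, a sensor that can start necroptosis, the death that follows when caspases are blocked, was at 1.03, 0.408 and 0.152 in siControl and at 4.68, 4.63 and 3.54 FPKM in siNCOA4+DFO (log2 3.05, adjusted p = 2.57e-04, or 1.82 with a pseudocount of 1). It rose with DFO in siControl cells too (log2 2.56, adjusted p = 8.72e-04), and its change from siControl+DFO to siNCOA4+DFO was 0.50 (95% interval -0.57 to 1.57, adjusted p = 0.531).

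**Figure D4:**
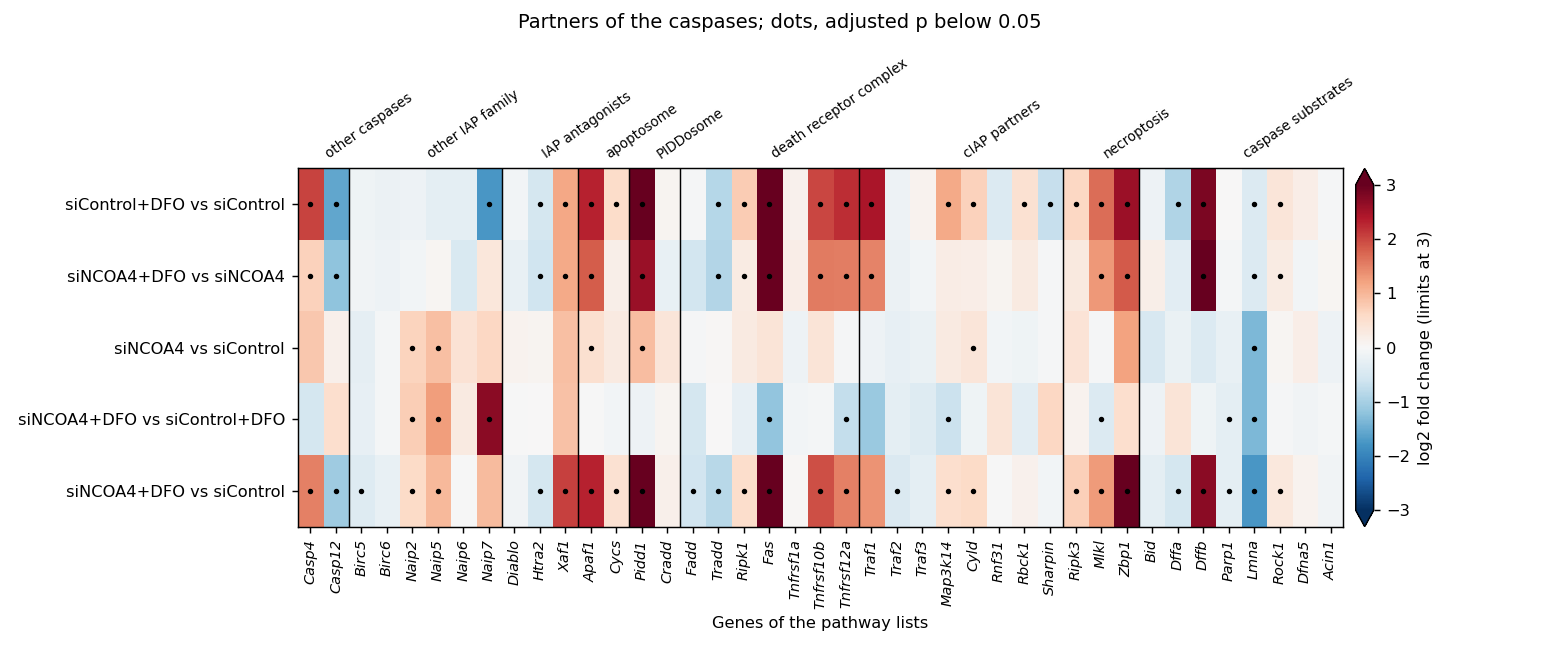
Log2 fold change (colour, limits at 3 in both directions) of the tested pathway genes (horizontal axis, by list) in 5 comparisons (vertical axis). Dots mark an adjusted p below 0.05. With DFO in siControl cells 18 genes rose, Fas most at 4.54, and 7 fell. Traf1, among those that rose, passed the filter only through DFO libraries.

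The gene patterns nearest to Casp9, the member with the largest change past the test, were sought among all tested genes. The search ran over the 12 libraries on the log2 scale, so the r values listed are its extremes. The 5 most similar were Abi2 (Pearson r = 0.963), Tmem44 (0.957), Tfeb (0.956), Cdkn2d (0.953) and Clec2d (0.951), and the 3 most opposite were Psmd8 (-0.954), Trmt13 (-0.950) and Cdc45 (-0.946). Tfeb averaged 4.85 ± 0.361 FPKM in siControl and 1.48 ± 0.464 in siControl+DFO (SD, n = 3). Psmd8 averaged 48.2 ± 0.742 and 83.9 ± 9.44 in these groups. Among the 8 genes themselves, Casp9 ran opposite to Cflar (r = -0.859) and Casp2 (r = -0.764), and Cflar ran with Birc2 (r = 0.762). These r values describe 12 libraries that share their 4 groups and were not tested.

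**Figure D5:**
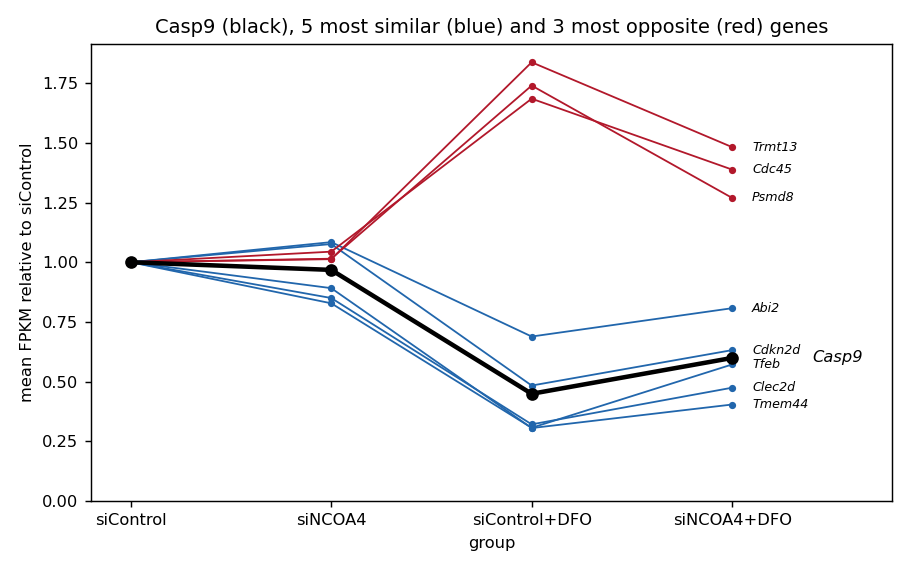
Mean FPKM relative to siControl (vertical axis) in the 4 groups (horizontal axis) for Casp9 in black, the 5 genes most like it in blue and the 3 most opposite in red. The similar genes had lower means with DFO, as Casp9 did, and the opposite ones higher means, Psmd8 from 48.2 to 83.9 FPKM. Both follow from picking the genes by their correlation with Casp9.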

How the data were processed

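RNA from 12 HT22 cultures was sequenced as 75-base pairs. The authors deposited FPKM per gene, 1 table per library. The submitters' processing notes name Trimmomatic 0.33, FastQC, HISAT2 2.1.0, featureCounts, edgeR and mm10, with no role given, and the tool that made the FPKM is not given in the sources used here. FPKM hold no counts, so depth is relative only and a count test was not used. Counting intervals cover counting error only.

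Of 24347 entries 4 shared a name and were left out. The 11924 genes that reached 0.5 FPKM in 3 or more libraries were fitted on log2(FPKM + 0.1), which understates changes of low genes, in a means model over all 12 libraries with limma 3.58.1 in R 4.3.3 (trend moderation, 8 residual and 4.067 prior degrees of freedom, Benjamini-Hochberg adjustment over all tested genes). The fit was tested on simulated data. With 3 libraries against 3 an exact permutation test cannot go below 0.1 (two-sided) and was not used.

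Groups came from the labels, and p-values measure the spread between these cultures. The rule named the 8 members, Ncoa4, the 3 pathway genes with the largest passing change in each comparison and genes listed at 0. The members and lists were chosen with earlier results of these data known. Alternatives were other pseudocounts, filters and scalings, a replicate block, the compared groups alone, moderation without trend, and leaving out each library. Scaling by median of ratios could change little, since its factors were 1.0035 to 1.013 in the values as deposited. The counts of pathway genes under these were added after seeing the data. Some genes of the pathway lists are not reported here. Gene models were from GENCODE on GRCm38 and promoters from RefSeq on GRCm38.p6 (all 8 members matched, 11 windows). Python 3.11.15, numpy 2.4.6, pandas 2.3.3 and matplotlib 3.10.9 were used.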

Additional observations from a re-analysis of the deposited data

Results flagged for a closer look

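For 4 pathway genes the siNCOA4 libraries all lay above the siControl libraries without DFO and all below them with DFO. Groups did not overlap, in either direction, for 32.6% of all tested genes in the first comparison and 34.8% in the second. The share of all genes with both of these opposite moves was not counted, so the 4 cannot be set beside it. Of the 4, only Cyld passed the test without DFO and only Map3k14 with it. The Cyld call was lost without siNCOA4 replicate 2 (adjusted p = 0.0689) and with the compared groups fitted alone (0.0503). That of Map3k14 was lost without siControl+DFO replicate 2 (0.0596) and with the compared groups fitted alone (0.0692). The difference of the siNCOA4 effects (with DFO minus without, log2) was tested in limma and passed for none of them as reported. It was -1.34 for Casp4, an inflammatory caspase (adjusted p = 0.0780), -0.51 for Ripk1, a kinase of the death receptor complex (adjusted p = 0.0589), -0.92 for Map3k14, a kinase that cIAP proteins keep low (adjusted p = 0.0504), and -0.49 for Cyld, a deubiquitinase that acts against them (adjusted p = 0.0518). Map3k14 stood at 7.06, 6.60 and 6.86 FPKM in siControl, 8.75, 8.42 and 7.82 in siNCOA4, 15.5, 16.5 and 13.6 in siControl+DFO and 11.8, 10.5 and 7.43 in siNCOA4+DFO. Its difference passed without siNCOA4+DFO replicate 1 (-1.05, adjusted p = 0.0237), without replicate 3 (-0.72, adjusted p = 0.0466), with a pseudocount of 1 (0.0471), with the filter of 2 FPKM in 3 libraries (0.0433) and with the replicate block (0.0490). That of Cyld passed with the filter of 2 FPKM (0.0469) and that of Ripk1 without siNCOA4+DFO replicate 3 (0.0442).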

How the results depend on the processing

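The count of members past the test was recomputed under 9 other settings and with each of the 12 libraries left out. With DFO in siControl cells it stayed at 3 or 4, with Cflar, Birc2 and Casp9 past the threshold every time. Without DFO, siNCOA4 gave 0 in place of 1 with no filter on low values and with moderation without trend. DFO in siNCOA4 cells gave 1 in place of 4 when the compared groups were fitted alone. Between siNCOA4+DFO and siControl+DFO the count was 1 in place of 0 (Cflar, adjusted p = 0.0483) when genes had to reach 2 FPKM in 3 or more libraries. Leaving out 1 library gave 0 to 2 for siNCOA4, 3 to 4 for DFO in siControl cells, 1 to 4 for DFO in siNCOA4 cells, 3 to 4 for both treatments against siControl, 0 to 1 for siNCOA4 under DFO and 0 to 0 for the difference of effects. No value changed sign past the threshold. Same-numbered libraries showed no strong shared deviation (r of -0.127 to 0.116 over 18 pairs, 2 above 0.1). With so few libraries per group this cannot tell whether the numbers mark cultures handled together. With the replicate block the member counts stayed at 1, 4, 4, 3, 0 and 0 in the 6 comparisons, and the difference of effects passed for 2 pathway genes in place of 0. The pathway count for siNCOA4 under DFO was 4 in place of 9 with the compared groups alone and 5 without siControl+DFO replicate 2. For siNCOA4 without DFO it was 3 in place of 6 without siNCOA4 replicate 2. The difference of effects passed for 3 genes without siNCOA4+DFO replicate 1 and for 2 without replicate 3. It passed for 2 with a pseudocount of 1 and for 3 with the filter of 2 FPKM. Fas was among these genes without siNCOA4+DFO replicate 1 (0.0233), with the pseudocount of 1 (0.04) and with the filter (0.0451). Pidd1 passed without siNCOA4+DFO replicate 1 (0.0443) and with the replicate block (0.0494). The cause of these shifts was not tested, and some of the settings also use fewer libraries. FPKM set no limit of detection, and low genes such as Birc3 carry a wide counting error, which is not known for Casp9.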
